A study of Drosophila melanogaster with 6 samples.

Results

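The tailed and bicipital Bomanins are 6 of the 12 Bomanin genes of Drosophila melanogaster: BomT1, BomT2 and BomT3 are the tailed genes, and BomBc1, BomBc2 and BomBc3 the bicipital ones. They were taken by FlyBase identifier from a table of 17558 genes, and all 6 were present and passed the filter on low values. The flies were adult males that were injected with the Gram-positive bacterium Micrococcus luteus and taken 12 h later. The 3 control libraries came from flies with Gal80ts, a temperature-sensitive repressor of Gal4, and the Tub-Gal4 driver over P{CaryP}attP40. The 3 overexpressing libraries came from flies labelled Gal80ts; Tub> NANPI, in which the driver expressed the long noncoding RNA CR33942, named NANPI in the series. Gal80ts and infection were thus shared by both groups, no uninfected flies were analysed here, and the tubulin promoter drives Gal4 in most tissues. The attP40 site appears in the control label only, so strain and overexpression cannot be told apart. Nothing in the labels says whether replicates were separate pools of flies, so the p-values rest on a spread between libraries that may be technical.

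Bomanins are small secreted peptides that the fat body, the liver-like organ of the fly, releases into the haemolymph when the Toll pathway is activated. Gram-positive cell wall is sensed by peptidoglycan recognition proteins, a protease cascade cleaves the ligand Spätzle, and the receptor Toll then frees the NF-kB factors Dif and Dorsal, which switch on the Bomanin genes. Flies that lack the main Bomanin cluster are highly susceptible to Gram-positive bacteria and fungi. The short family encodes little more than a secretion signal and a Bomanin domain, the tailed family adds a C-terminal tail to that domain, and the bicipital family carries a pair of Bomanin domains joined by a linker. The series title sets CR33942 in the context of Dif, Dorsal and antibacterial peptide genes. The comparison asks here whether these 6 Toll target genes differed with its overexpression.

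CR33942 itself, listed as lncRNA:CR33942, stood at 18.7, 19.5 and 19.0 FPKM (fragments scaled to exon length and to library depth) in control replicates 1, 2 and 3. It stood at 553, 589 and 563 FPKM in overexpressing replicates 1, 2 and 3, so the libraries carry the RNA their labels name. Across 12326 tested genes, limma called 274, with 104 higher and 170 lower in overexpressing flies. Overexpressing replicate 2 lay apart from its group on the second principal component, at 17.1 against -8.12 and -6.63, and counts of called members and listed genes that change without it are given with and without it. Reads recovered from the FPKM values came to between 15084193 and 17551534 per library. Male markers were present, with summed levels of 2810 to 3110 FPKM in controls and 2801 to 3104 FPKM in overexpressing libraries. The most abundant of them were Acp53Ea, an accessory gland gene at 747 and 749 FPKM, and Mst84Db, a testis gene at 724 and 715 FPKM (group means). Of 11 female markers 8 were below the filter, and limma called 1 of the other 3, the yolk protein gene Yp3, at 32.4 and 9.04 FPKM (adjusted p = 0.000441).

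The 6 genes lie at 2 places. BomT1 (FBgn0262838), BomBc1 (FBgn0034328), BomBc2 (FBgn0034331) and BomT2 (FBgn0040735) share a cluster of 10 Bomanin genes on chromosome arm 2R, between 18381393 and 18390629 in dm6 coordinates, with all 6 short Bomanins. BomT1 and BomBc1 are neighbours on the minus strand, 859 nt apart, at one end of the cluster. BomBc2 is on the same strand, and its exons overlap those of BomS4 on the opposite strand by 88 nt, which is 12.4% of the exon length of BomBc2. No source used here gives the strand setting of the counting, and without strand the reads of both genes in that stretch cannot be told apart. BomT2 is on the plus strand, 260 nt from BomS3. BomT3 (FBgn0038930), on chromosome arm 3R between 22085374 and 22086397, and BomBc3 (FBgn0040582), between 22087075 and 22088501, point away from each other with 677 nt between their annotated starts.

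All 6 genes have longer coding sequences than any short Bomanin. The coding sequences of BomT1, BomT2 and BomT3 span 63, 76 and 117 codons, and those of BomBc1, BomBc2 and BomBc3 span 117, 154 and 98 codons. The short Bomanins span 39 to 45 codons. BomT3 and BomBc2 each have 2 annotated transcripts and BomBc3 has 3, and within each gene the annotated transcripts have coding sequences of equal length.

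In overexpressing flies none of the 6 genes passed the test over all genes, and their estimates lay on both sides of 0. BomT3 and BomBc2 were lowest relative to controls, at 0.775 and 0.801 of the control mean. BomT1 and BomBc1, the neighbouring pair, were at 1.16 and 1.08 of it. By limma 0 of 6 passed, where 2.22% of all tested genes did, and an unadjusted p under 0.05 was reached by 2 of them and by 15.7% of tested genes. Voom on recovered reads called 1 of them lower (BomBc2), where 1.94% of its genes were called lower. The median log2 change of the 6 was -0.16, with 2 above and 4 below 0, beside a median of 0.002 over all tested genes. Groups of libraries did not overlap for BomT3 and BomBc2, both lower, where 11.7% of all tested genes were lower without overlap.

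**Figure D1:**
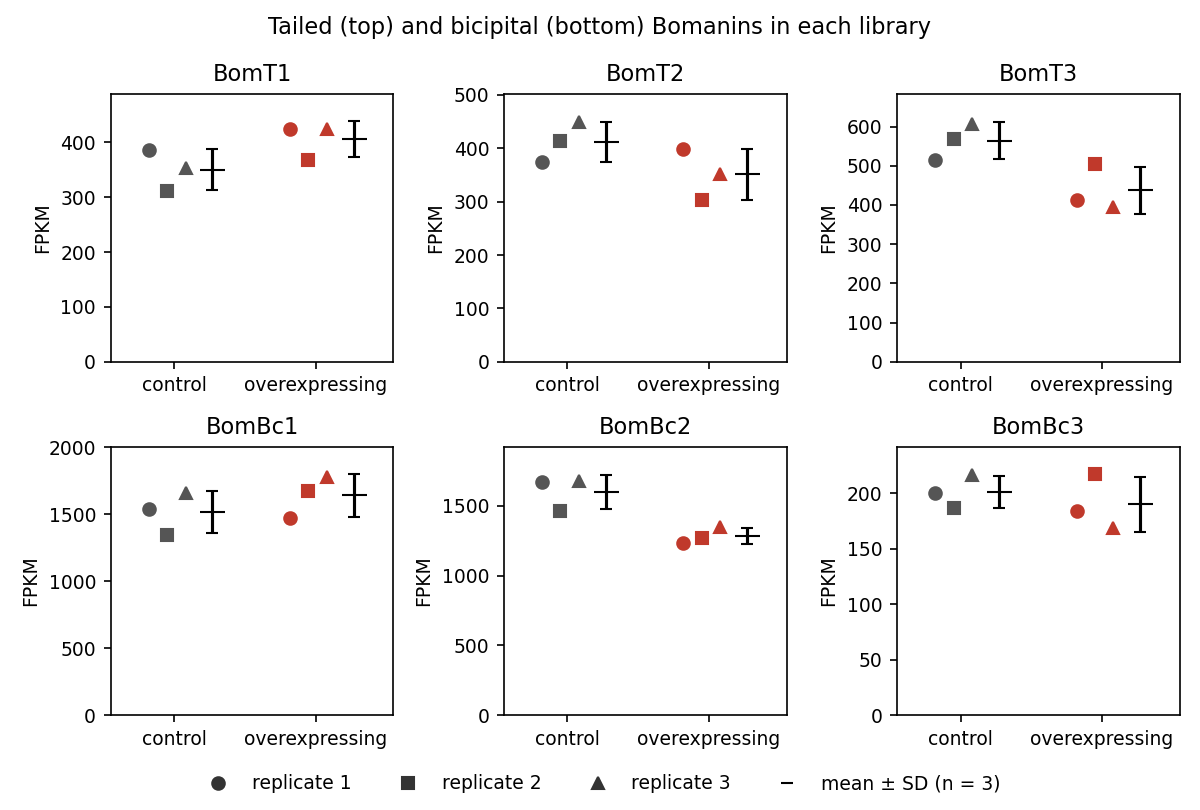
FPKM of each tailed (top row) and bicipital (bottom row) Bomanin in the 3 control and 3 overexpressing libraries, with marker shape for the replicate number and the mean ± SD (n = 3) beside each group. All overexpressing values of BomT3 and BomBc2 lie below all control values, while the groups of the other 4 genes overlap.

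Among the tailed genes, BomT1 stood at 386, 311 and 353 FPKM in control replicates 1, 2 and 3. In overexpressing replicates 1, 2 and 3 it stood at 424, 367 and 424 FPKM. Replicates 1 and 3 of the overexpressing group were above every control, and replicate 2 lay among the controls. The means were 350.0 ± 37.5 and 405 ± 32.8 FPKM (SD, n = 3 each). On the log2(FPKM + 1) scale, used for all changes here, the log2 change was 0.21 ± 0.09 (SE; adjusted p = 0.330 by limma), with a 95% interval from -0.005 to 0.43. That interval spans ratios of 0.997 to 1.35, overexpressing to control, and includes 1.

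BomT2 stood at 373, 414 and 448 FPKM in control replicates 1, 2 and 3, and at 398, 303 and 352 FPKM in overexpressing replicates 1, 2 and 3. The highest overexpressing library, replicate 1, lay between the controls, and the other two lay below them. The means were 412 ± 37.5 and 351 ± 47.5 FPKM (SD, n = 3 each), and the log2 change was -0.23 ± 0.11 (SE; adjusted p = 0.359 by limma; 95% interval -0.49 to 0.02). BomT1 and BomT2 are the tailed members of the same cluster, and their estimates have opposite signs. That difference between the genes was not tested.

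BomT3, the tailed gene outside the cluster, stood at 515, 569 and 608 FPKM in control replicates 1, 2 and 3. In overexpressing replicates 1, 2 and 3 it stood at 412, 505 and 395 FPKM. Every overexpressing library was lower than every control, but replicate 2 came close to control replicate 1. The means were 564 ± 46.3 and 437 ± 59.5 FPKM (SD, n = 3 each). Limma put the log2 change at -0.37 ± 0.10 (SE; adjusted p = 0.139; 95% interval -0.61 to -0.13). The exact two-sided permutation p was 0.1, which 3 libraries against 3 cannot go below. Without overexpressing replicate 2 the log2 change was -0.48 ± 0.08 (SE) and passed (limma, adjusted p = 0.0208), where 2.08% of tested genes were called lower.

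Among the bicipital genes, BomBc1, known from peptide surveys of haemolymph as IM23, stood at 1537, 1346 and 1657 FPKM in control replicates 1, 2 and 3. It stood at 1468, 1674 and 1780 FPKM in overexpressing replicates 1, 2 and 3. Replicates 2 and 3 of the overexpressing group were above every control, and replicate 1 was below 2 of the controls. The means were 1513 ± 157 and 1640.5 ± 158 FPKM (SD, n = 3 each), and the log2 change was 0.12 ± 0.10 (SE; adjusted p = 0.647 by limma; 95% interval -0.12 to 0.35).

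BomBc2, the longest of the 6 peptides by codons, stood at 1670, 1461 and 1674 FPKM in control replicates 1, 2 and 3. In overexpressing replicates 1, 2 and 3 it stood at 1233, 1268 and 1346 FPKM. The 3 overexpressing libraries were close together and all below the lowest control. The means were 1602 ± 122 and 1282 ± 58.0 FPKM (SD, n = 3 each). Limma put the log2 change at -0.32 ± 0.07 (SE; adjusted p = 0.0822; 95% interval -0.49 to -0.15; exact two-sided permutation p = 0.1). Voom put it at -0.30 ± 0.07 (SE) and past the threshold (adjusted p = 0.0385). How many reads of the stretch shared with BomS4 were counted for either gene is not known from gene-level values, and its part in the result was not tested.

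BomBc3 stood at 201, 187 and 216 FPKM in control replicates 1, 2 and 3. In overexpressing replicates 1, 2 and 3 it stood at 184, 217 and 169 FPKM. The highest and the 2 lowest of all 6 values were overexpressing libraries, so the groups overlapped throughout. The means were 201 ± 14.8 and 190.1 ± 24.8 FPKM (SD, n = 3 each), and the log2 change was -0.09 ± 0.10 (SE; adjusted p = 0.742 by limma; 95% interval -0.32 to 0.14).

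**Figure D2:**
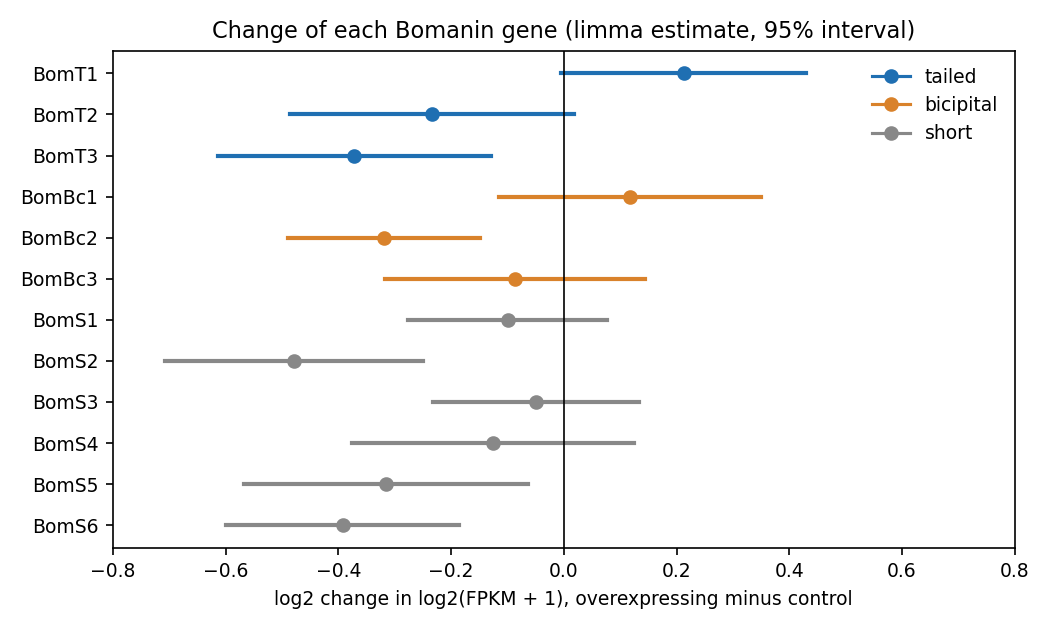
Log2 change on the log2(FPKM + 1) scale, overexpressing minus control, for the 12 Bomanin genes, with points for limma's estimate and lines for its 95% interval, unadjusted for the number of genes. Among the tailed and bicipital genes the intervals of BomT3 (-0.61 to -0.13) and BomBc2 (-0.49 to -0.15) lie below 0.

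Counting error was smaller than the spread between libraries. The 6 genes had between 2322 reads (BomT1 in control replicate 2) and 22836 reads (BomBc2 in control replicate 1) per library. Counting error alone then comes to between 0.662% and 2.08% of a value, while the coefficient of variation within a group was between 4.52% (BomBc2, overexpressing) and 13.6% (BomT3, overexpressing). This held for each of the 6 genes in both groups.

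Leaving out single libraries moved some members more than others. BomT3 moved between -0.48 and -0.30 over the 6 fits without 1 library, and passed in the fit without overexpressing replicate 2. BomBc2 moved between -0.38 and -0.29 and passed in 0 of the 6 fits by limma (adjusted p of 0.0800 to 0.249). BomT1 stayed between 0.13 and 0.29, and BomBc1 between 0.04 and 0.19. BomT2 stayed between -0.33 and -0.13. BomBc3 lay between -0.19, without overexpressing replicate 2, and -0.006, without overexpressing replicate 3.

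**Figure D3:**
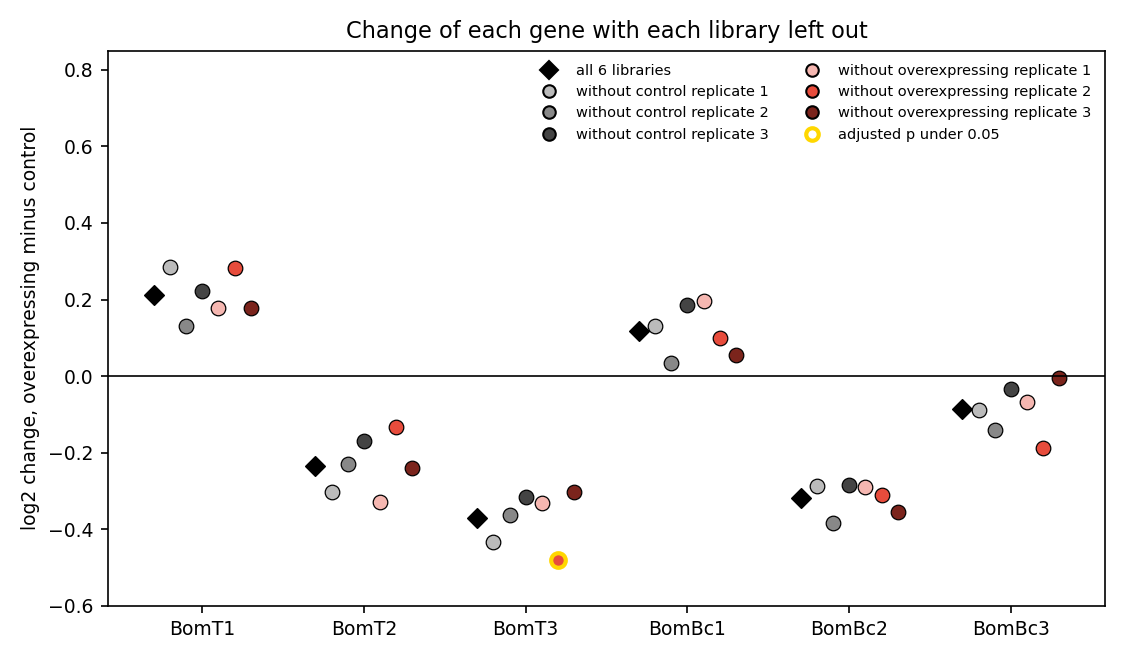
Log2 change, overexpressing minus control, of each gene in the fit of all 6 libraries (diamond) and in each fit without 1 library (circles), with a gold rim for an adjusted p under 0.05. The 1 rimmed point is BomT3 without overexpressing replicate 2, at -0.48.

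Ratios between neighbouring members do not depend on how a library was scaled; these 3 pairs were picked by position after their values were seen. BomBc2 to BomBc1 stood at 1.09, 1.09 and 1.01 in control replicates 1, 2 and 3, and at 0.840, 0.758 and 0.756 in overexpressing replicates 1, 2 and 3. The overexpressing ratios all lay below the control ratios. The ratio's distance from 1 depends on the exon length used for BomBc2, but its fold between groups and the order of the libraries do not. BomT3 to BomBc3, the divergent pair on 3R, stood at 2.57, 3.05 and 2.81 in controls and at 2.24, 2.32 and 2.34 in overexpressing replicates 1, 2 and 3, again without overlap. BomT1 to BomBc1 stood at 0.251, 0.231 and 0.213 in controls and at 0.289, 0.219 and 0.238 in overexpressing replicates 1, 2 and 3, where the groups overlapped. No test was made of these ratios, and the share of other gene pairs that separate in this way was not computed.

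**Figure D4:**
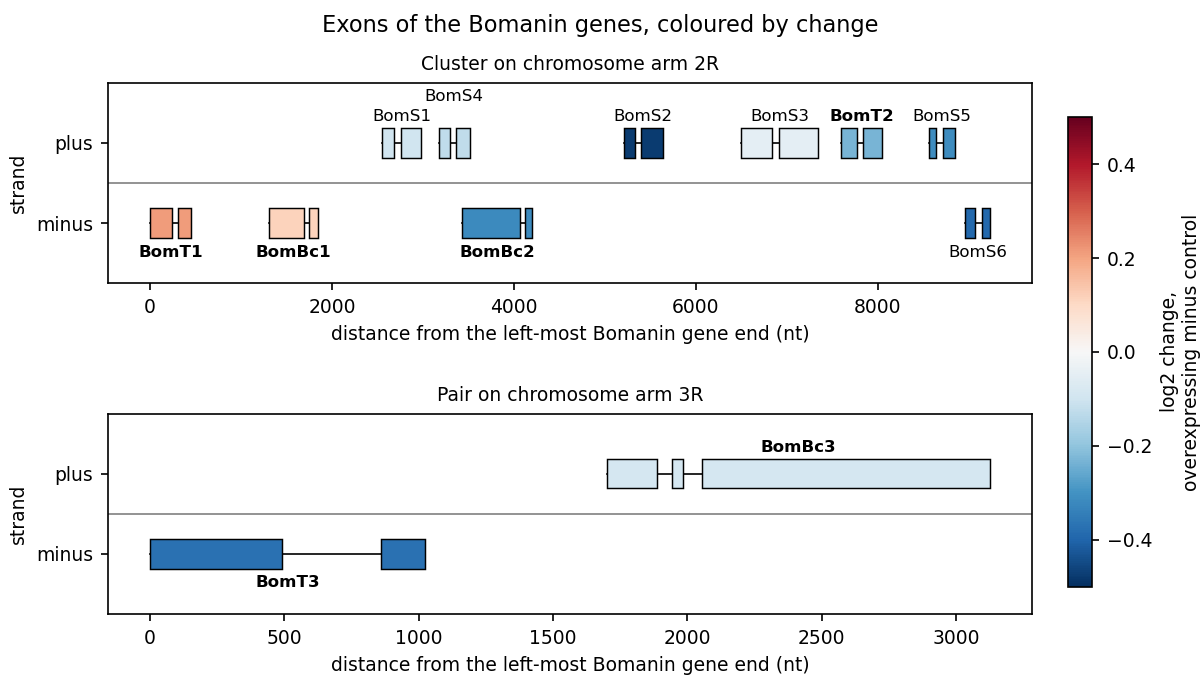
Exons (boxes) of the 12 Bomanin genes by strand and by distance in nt from the left-most gene end of each locus, coloured by the log2 change, overexpressing minus control; tailed and bicipital names are in bold. BomT1 (0.21) and BomBc1 (0.12), the only 2 of the 12 above 0 in the fit of all 6 libraries, sit side by side at the left end of the 2R cluster.

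By level the bicipital pair of the cluster led. In controls the order of mean FPKM was BomBc2, BomBc1, BomT3, BomT2, BomT1 and BomBc3. BomBc2 and BomBc1 overlapped in that order, at 1461 to 1674 and 1346 to 1657 FPKM, as did BomT2 and BomT1, at 373 to 448 and 311 to 386 FPKM. BomT3, at 515 to 608 FPKM, overlapped neither neighbour, nor did BomBc3, at 187 to 216 FPKM. In overexpressing libraries BomBc1 came before BomBc2 without overlap, BomT3, BomT1 and BomT2 overlapped each other as neighbours, and BomBc3 was again last. Among the 12326 tested genes BomBc1 ranked between 30 and 45 from the top over the 6 libraries and BomBc2 between 30 and 52. BomT3, BomT1 and BomT2 ranked between 174 and 342, and BomBc3 between 443 and 546.

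The places of BomBc3 and BomBc2 in that order depend on the length by which their reads were divided. FPKM times the union of annotated exons gave whole reads for each member, so the deposited values are per union length, which for BomBc3 is 1301 nt. Its shortest annotated transcript is 350 nt, 3.72 times shorter, with a shorter 3' exon. Divided by the shortest transcript of each gene instead, the control level of BomBc3 was 748 ± 55.0 FPKM, beside 737 ± 60.5 for BomT3 and 2255 ± 172 for BomBc2 (SD, n = 3). BomBc3 then ranked 3 of the 6 rather than last. On that length BomBc2 came first in overexpressing libraries too, at 1736 to 1895 FPKM, and overlapped BomBc1, at 1468 to 1780 FPKM. Gene-level values do not show which transcript was present, and the group comparison within a gene does not depend on this length beyond the pseudocount.

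**Figure D5:**
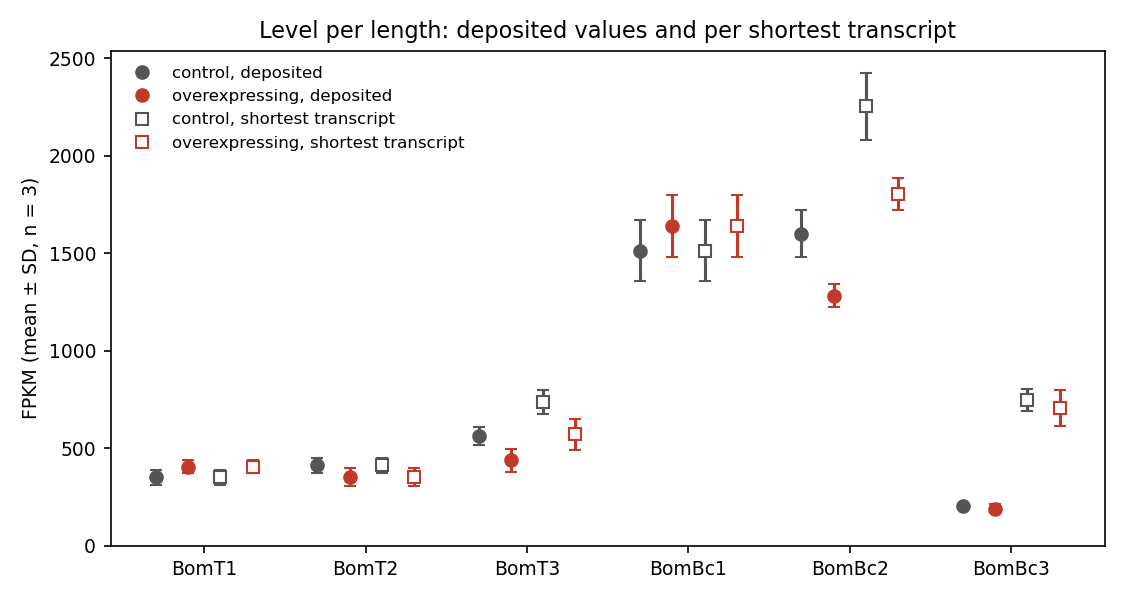
Mean FPKM ± SD (n = 3) of each gene in control and overexpressing libraries as deposited (filled circles) and with reads divided by the shortest annotated transcript (open squares). BomBc3 moves from 201 to 748 FPKM in controls, while BomT1, BomT2 and BomBc1, with 1 annotated transcript each, do not move.

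Set beside the short Bomanins, the most abundant Bomanin family, the tailed and bicipital genes made up a small part of the total. The tailed genes held 6.61% ± 0.215 of all Bomanin FPKM in the controls and 6.70% ± 0.454 with overexpression, and the bicipital genes 16.5% ± 0.673 and 17.4% ± 0.620 (SD, n = 3 each). Summed, the bicipital genes reached 3316 ± 288 and 3113 ± 209 FPKM and the tailed genes 1326 ± 72.4 and 1193 ± 34.7 FPKM. The tailed sums did not overlap, with 1275 FPKM as the lowest control and 1233 FPKM as the highest overexpressing library. Of the 3 tailed genes by themselves only BomT3 was lower without overlap, as were 11.7% of all tested genes. Limma called 0 of the 6 short genes, where 2.22% of all tested genes were called. An unadjusted p under 0.05 was reached by 3 of them and by 15.7% of tested genes. Voom called 2 lower, where 1.94% of its genes were called lower. Limma without overexpressing replicate 2 also called 2 lower, where 2.08% of tested genes were. The log2 changes of the short genes were -0.10 (BomS1), -0.48 (BomS2), -0.05 (BomS3), -0.13 (BomS4), -0.32 (BomS5) and -0.39 (BomS6). The estimate of BomS3 was 0.01 without overexpressing replicate 2. The median of the short genes was -0.22, beside -0.23 for the tailed and -0.09 for the bicipital genes. Without overexpressing replicate 2 the medians were -0.23 for the short, -0.13 for the tailed and -0.19 for the bicipital genes, so the order of the tailed and bicipital medians was reversed.

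Other Toll-induced peptide genes and the pathway itself give the setting. Of 14 listed other Toll-induced peptide genes, 12 were matched to the deposited values by symbol and 10 were tested. Drs and BaraA2 were not matched, so their change is not given here. The median log2 change of the 10 was -0.24. Of the 10, 7 had an unadjusted p under 0.05 by limma, beside 15.7% of tested genes. Groups did not overlap for 5 of them, all lower, where 11.7% of tested genes were lower without overlap. Limma called 2 of the 10 lower and 0 higher, where 2.22% of all tested genes were called in either direction. The 2 were SPH93, a serine protease homologue gene (log2 change -1.29, limma, adjusted p = 0.00599), and CG45045 (-0.38, adjusted p = 0.0246). Of 23 Toll pathway components limma called 1, PGRP-SD, whose product recognises peptidoglycan upstream of the protease cascade, which rose by 0.38 on the log2 scale (adjusted p = 0.0381). SPH93 passed in all 6 fits with 1 library left out, while CG45045 and PGRP-SD passed in 1, where overexpressing replicate 2 was left out; their highest adjusted p in the other fits was 0.120 and 0.127. Of the 23 components, 7 had an unadjusted p under 0.05 by limma. Voom called 2 components higher and 2 lower, where it called 172 of its 11864 genes higher and 230 lower. Without overexpressing replicate 2 limma called 3 components higher and 1 lower, and 1 of the other Toll-induced peptide genes higher and 2 lower. That fit called 203 of 12326 tested genes higher and 256 lower. Of 20 components of Imd, the parallel pathway that senses Gram-negative peptidoglycan, 0 passed by limma. Voom called 1 of the 19 it tested higher. An unadjusted p under 0.05 was reached by 5 of the 20 and by 15.7% of tested genes. Without overexpressing replicate 2 limma called 2 of the 20 components of the Imd pathway higher, where 203 of 12326 tested genes were called higher. Its 2 most abundant members were eff, a ubiquitin-conjugating enzyme gene at 158 and 156 FPKM, and Rel, the NF-kB factor of that pathway, at 118 and 157 FPKM (control and overexpressing means; limma, adjusted p = 0.234, and 0.0455 without overexpressing replicate 2).

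Fat body markers were lower on balance. Of 11 tested markers 10 were below 0, with a median log2 change of -0.38. Of the 11, 7 had an unadjusted p under 0.05 by limma, beside 15.7% of tested genes. Limma called 3 lower, where 2.22% of all tested genes were called in either direction. The 3 were Desat1, a fatty acid desaturase gene (-0.36, adjusted p = 0.0172), fat-spondin (-0.47, adjusted p = 0.00668) and Apoltp, which encodes a lipid transfer protein (-0.38, adjusted p = 0.0485). Of these fat-spondin passed in all 6 fits with 1 library left out, Desat1 in those without control replicate 3 or overexpressing replicate 2 (up to 0.0800), and Apoltp in that without overexpressing replicate 2 (up to 0.171). Without overexpressing replicate 2 limma called 6 of the 11 lower, where 2.08% of tested genes were called lower. The summed level of the 12 markers in the table was 1427 to 1553 FPKM in controls and 1085 to 1242 FPKM with overexpression. Of the 12, 0 were at 0 in every library. The largest parts of the sum were Desat1, at 769 and 599 FPKM, and Npc2g, at 470 and 366 FPKM (group means). Lsp1gamma, Fbp1 and Fbp2, among the markers below 0, were near the filter, with control means of 2.38, 1.39 and 4.21 FPKM. The part of the fat body markers in the result was not tested. In whole flies fewer cells of a type and less RNA per cell cannot be told apart. Haemocyte markers, for the circulating blood cells, summed to 165 to 176 FPKM in controls and 151 to 167 FPKM with overexpression. Of 11 tested, 3 were above and 8 below 0, with a median log2 change of -0.05. Limma called 1 of them, NimC1, a phagocytosis receptor gene, lower (log2 change -0.51, adjusted p = 0.0207). That call was kept without overexpressing replicate 2 and lost without each other library (up to 0.0922). Of the 11 haemocyte markers, 4 had an unadjusted p under 0.05 by limma, beside 15.7% of tested genes. Voom called 1 of the 10 it tested higher and 1 lower, where it called 172 of its 11864 genes higher and 230 lower. Of the male tract and gut markers 0 of 9 were called by limma and 1 had an unadjusted p under 0.05. That was the trypsin gene betaTry, at 774 and 1158 FPKM, which voom called higher, and alphaTry, the most abundant, stood at 2918 and 3065 FPKM (group means).

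The genes beside the Bomanins that belong to no Bomanin family did not pass either. Idgf5, an imaginal disc growth factor gene 4222 nt from BomT2, stood at 35.4 ± 5.67 and 26.8 ± 2.86 FPKM (SD, n = 3 each; limma, adjusted p = 0.188). CG13408, which is 1900 nt from BomT3, stood at 1.01 ± 0.129 and 1.32 ± 0.441 FPKM (adjusted p = 0.632). The noncoding gene lncRNA:CR42736, 3196 nt from BomT1, was below the filter, at 0.170 ± 0.159 and 0.103 ± 0.179 FPKM.

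Profiles over the 6 libraries were compared between members and with all other genes. Likeness was the root mean square difference between log2 profiles, each centred on its own mean, and is a description over 6 libraries of 2 groups. Of the 15 pairs of members the smallest difference was that of BomT1 and BomBc1 (0.144), which are neighbours. Next came BomT3 and BomBc3 (0.160), also neighbours, and BomT3 and BomBc2 (0.164), which lie on different arms. A flat profile differs from a member by that member's own root mean square about its mean. That value was 0.155 for BomT1, 0.227 for BomT3, 0.176 for BomBc2, 0.133 for BomBc1 and lower still for BomBc3. BomBc1 was thus closer to a flat profile than to BomT1, and BomBc3 closer to it than to BomT3. The difference of BomT3 and BomBc2 was below the values of both genes. BomBc1 and BomBc2, neighbours on one strand, differed by 0.226, and the largest difference was that of BomT1 and BomT3 (0.369). Among 6734 other genes with a mean of at least 10 FPKM, the closest to BomT1 were gammaTub23C (0.0462) and ome (0.0590), and to BomT2 CG3420 (0.0282) and Dim1 (0.0443). The closest to BomT3 were mt:ND5 (0.0452) and CG6435 (0.0531). BomBc1 was closest to CG4891 (0.0210) and CG3788 (0.0268), BomBc2 to Qsox2 (0.0407) and Akh (0.0407), and BomBc3 to CG31855 (0.0287) and CG14671 (0.0373).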

How the data were processed

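RNA was measured in 6 libraries of whole-transcriptome sequencing. Per the labels' protocols, poly-T selected RNA was sequenced as paired ends, aligned with HISAT2 2.0.5 and counted with featureCounts 1.5.0-p3; per the submitters' processing notes they used dm6. The deposited table gives FPKM per gene and library; no source used here says how the authors got from counts to FPKM. Symbols, exon lengths and coordinates came from the Ensembl annotation of dm6, which paired 17252 of 17558 identifiers with a symbol.

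The test was limma 3.58.1 (eBayes with a trend; R 4.3.3) on log2(FPKM + 1), which understates the change of low genes. Genes with at least 1 FPKM in at least 3 of 6 libraries were tested, two-sided, with Benjamini-Hochberg adjustment over all 12326 and a threshold of 0.05. The fit was tested on simulated data whose changed genes had larger fold changes than any of the 6 members. That simulation does not cover changes of their size. FPKM times exon length gave whole reads (tolerance 0.01 of a read) for 15276 of 15647 genes, or 97.6%, and voom was run on the 11864 of these that passed the filter. Other alternatives were a pseudocount of 0.1, no filter, other scalings, no variance trend, a replicate block and each library left out. Members and lists were chosen with earlier results of these data known. Named genes were CR33942, the Bomanins, called or else the 2 most abundant members of each list, genes within 5 kb of a member, and the 2 genes of most like profile per member. Sequences were not used here.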

Additional observations from a re-analysis of the deposited data

How the results depend on the processing

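The direction of each of the 6 members was the same in all 13 alternatives. With no filter, the replicate block or no variance trend the estimate equals that of the main fit by construction, so its sign could not change there. Of the 78 values, 76 stayed on the same side of the threshold. The 2 that did not were BomBc2 by voom (-0.30) and BomT3 with overexpressing replicate 2 left out; without each library in turn BomT3 lay between -0.48 and -0.30. The count of called members, 0 by limma, was 1 by voom and between 0 and 1 without each library, and that of short Bomanins was 2 by voom and between 0 and 2. Other Toll-induced peptides gave 1 call with no filter and with the replicate block, and between 1 and 3 without each library. By voom there was 1 call too, but voom tested 9 of the 10 genes and not CG45045. SPH93 kept its call there (voom, adjusted p = 0.00041). Toll pathway components gave 0 with no filter, with the replicate block and with no variance trend, 2 with upper quartile scaling, 4 by voom and between 0 and 4 without each library. Over all genes 274 calls became 402 by voom, 110 with the replicate block and between 72 (without control replicate 2) and 459 (without overexpressing replicate 2). Leaving out control replicate 1 gave 88 calls, control replicate 3 gave 125, overexpressing replicate 1 gave 103 and overexpressing replicate 3 gave 124. The cause was not tested. Same-numbered libraries did not deviate together (correlations of -0.05, -0.18 and 0.03), so the block rests on a number alone, and it left 0 members called. Scalings moved the median gene by at most 0.02 on the log2 scale.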
